A study of Mus musculus with 10 samples.

Results

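The serpins are a gene family named for serine protease inhibitors, and the expression of its mouse members was compared between livers given an adenovirus for Phf2 and livers given one for GFP. Members were the features whose platform annotation gave exactly 1 symbol starting with Serpin, with pseudogenes kept, and 48 of the 19938 genes measured met this rule. Each member had 1 feature, and the letter after Serpin placed 15 in clade a, 24 in clade b, 2 in clade f, 2 in clade i and 1 each in clades c, d, e, g and h. A further 5 features carry several Serpin symbols at once. They were not counted as members, and their values are given separately.

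All mice were male C57BL/6J animals of 8 weeks that received the adenovirus through the tail vein and were studied fed, 3 weeks later. Per the study's methods the dose was 500000000 plaque-forming units of virus per mouse. Liver RNA of 5 mice given the Phf2 virus and 5 mice given the GFP virus was hybridised, with 1 Affymetrix array per mouse. Both groups carried a virus, so the comparison holds no liver without adenovirus, and viral delivery through the blood sets which cells receive the transgene.

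Most serpins trap a protease: the enzyme cuts an exposed loop of the inhibitor, the inhibitor changes shape, and the pair stays locked together and is cleared. Hepatocytes secrete many of the clade a, c, d, f and g members into the plasma, where they restrain coagulation, fibrinolysis, complement and leukocyte proteases. Other members have lost inhibition and carry hormones or fold collagen, and clade b members mostly stay inside the cell that makes them.

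Values are log2 signals after robust multi-array averaging (RMA), so a difference of 1 is a doubling, and levels of different genes were not set against each other, since probes differ in brightness. Array medians lay between 5.06 and 5.18, and arrays correlated at 0.9783 to 0.9932. The first principal component held 41.2% of the variance and placed the GFP arrays between -22.45 and -14.07 and the Phf2 arrays between 4.26 and 34.28. Phf2 itself did not check the labels: its feature read 6.32 to 6.54 in the GFP arrays and 6.27 to 6.58 in the Phf2 arrays, and the sources used here do not say whether its probes match the virus. The study's methods name a human cell line as the cDNA source of its Phf2 plasmid and give no source for the adenoviral sequence. They also state that mice found not to overexpress GFP or Phf2 were taken out of the cohort. GFP and Phf2 name the arrays as labelled throughout. The 10 hepatocyte markers were present in every array, with means of 11.82 to 11.93 in GFP and 11.50 to 11.80 in Phf2. All 10 had a difference below 0, and 4 of them fell, most of all Tat, a tyrosine-degrading enzyme (-0.83), and Cps1, of the urea cycle (-0.57).

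Some arrays stood apart in ways that touch members. In Phf2 replicate 3, 97 genes read at least 1 log2 unit above every other array, among them 4 serpins of clade b. In GFP replicate 1 the count was 49 genes, with Serpini2 among them, and in GFP replicate 4 it was 24 genes with no serpin. Members that rest on these arrays are given with and without them.

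Serpin expression changed in a few members and mostly downwards. By limma with adjustment over all genes, 8 of the 48 members fell and 2 rose. Over all genes, 4.24% fell and 5.43% rose. In the same 10 members, and in no other, the 5 Phf2 values and the 5 GFP values did not overlap. Over all genes, the groups did not overlap in 4.36% with Phf2 lower and in 4.71% with Phf2 higher. The median log2 fold change was -0.02 over the serpins and -0.01 over all genes. Of the 48, 24 had a mean over all arrays above the 25th percentile of all genes (4.25), and each of the 10 that changed was among these. Without the dim genes the medians were -0.147 over these 24 serpins and -0.00119 over 14953 genes. The median over the 10 hepatocyte markers was -0.197. In whole liver, fewer cells of a type and less RNA per cell cannot be told apart. Nothing in the labels says more of the replicates than that they are biological, and p-values measure the spread between these 10 mice.

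**Figure D1:**
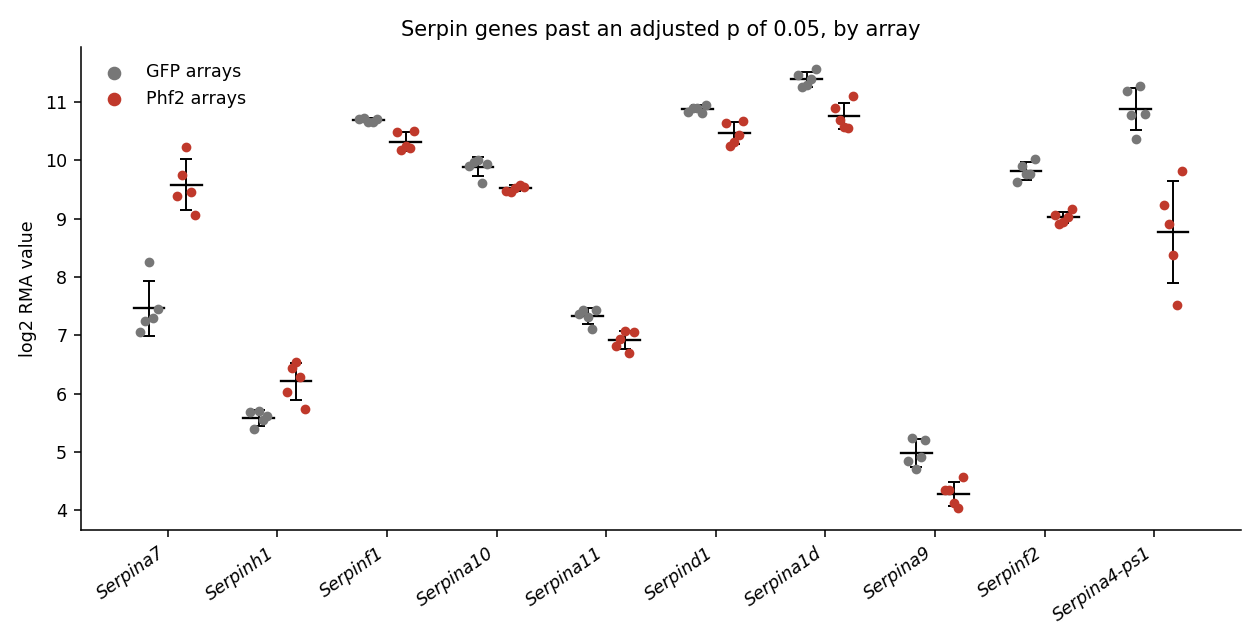
The log2 RMA value (vertical axis) of the 10 serpins past an adjusted p of 0.05, with 1 point per array, the mean as a horizontal bar and the SD as an error bar, for 5 GFP (grey) and 5 Phf2 (red) arrays. The groups did not overlap in any of the 10, and Serpina7 and Serpina4-ps1 moved furthest.

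Serpina7, which encodes thyroxine-binding globulin, the plasma carrier of thyroid hormone, rose most. It read 7.05, 7.24, 8.26, 7.30 and 7.45 in the GFP arrays and 9.39, 9.75, 10.23, 9.46 and 9.07 in the Phf2 arrays. The lowest Phf2 array lay above the highest GFP array. The rise was 2.12 on the log2 scale (SE 0.24, adjusted p = 0.000161), or 4.34-fold, and the exact two-sided permutation p was 0.00794, the smallest that 5 arrays against 5 can give. It is the 1 member on the X chromosome, apart from the other clade a genes, which lie together on chromosome 12. Over the alternatives of the processing its log2 fold change ran from 1.85 to 2.32.

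Promoter windows of 250 bases before the start of transcription were taken from RefSeq (GRCm38.p6), where 41 of the 48 members have one, and are printed for members that the results turn on. Capitals mark the half-site of HNF1, a hepatocyte transcription factor (GTTAAT, or ATTAAC on the other strand). Of 27025 mouse windows of this length, 6.54% hold it, and of the 41 serpin windows 6 do (Serpina1c, Serpina1d, Serpina7, Serpinb3d, Serpinb8 and Serpini2). The Serpina7 window holds it, with its first base 57 bases before the start:
Serpina7 (chrX:139085237-139085486, minus strand): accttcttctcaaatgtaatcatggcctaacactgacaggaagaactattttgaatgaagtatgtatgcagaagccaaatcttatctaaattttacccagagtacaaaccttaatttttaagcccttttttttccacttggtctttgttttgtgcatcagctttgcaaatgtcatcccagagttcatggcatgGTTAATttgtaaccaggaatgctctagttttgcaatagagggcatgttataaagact

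The other carrier of a hormone, Serpina6, encodes corticosteroid-binding globulin. It read 11.41, 11.52, 11.33, 11.32 and 11.25 in the GFP arrays and 11.28, 11.20, 11.23, 11.19 and 11.25 in the Phf2 arrays. The groups overlapped, since Phf2 replicate 1 lay above GFP replicate 5, and the difference of -0.14 did not pass the adjusted test (SE 0.06, 95% confidence interval -0.27 to -0.00, adjusted p = 0.208). The exact permutation p of this single value was 0.0159. Of 7 other genes that handle steroid and thyroid hormones, 1 fell and none rose. It was Hsd11b1, which regenerates active glucocorticoid (log2 fold change -0.52, SE 0.07, adjusted p = 0.000963). Agt, the angiotensin precursor and a serpin by structure under another name, read -0.24 (SE 0.09, adjusted p = 0.116). Among its 5 pathway genes Enpep, an angiotensin-cleaving peptidase, rose by 0.43 and Agtr1a, the angiotensin receptor, fell by 0.52.

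Serpina4-ps1, annotated by its name as a pseudogene related to the kallikrein inhibitor kallistatin, fell most. It read 11.19, 10.77, 10.37, 11.27 and 10.79 in the GFP arrays and 9.24, 8.91, 8.38, 7.51 and 9.82 in the Phf2 arrays. No Phf2 array reached the lowest GFP array, and the Phf2 arrays were spread over a wider range (SD 0.88 against 0.36). The log2 fold change was -2.11 (SE 0.35, adjusted p = 0.00224), a level 4.31-fold lower, and it ran from -2.37 to -1.79 when single arrays were left out.

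The alpha-1-antitrypsin paralogues, made in quantity by hepatocytes, did not read alike. Serpina1d read 11.46, 11.25, 11.29, 11.40 and 11.56 in the GFP arrays and 10.89, 10.69, 10.57, 10.56 and 11.11 in the Phf2 arrays. Every Phf2 array was lower, and it fell by 0.63 (SE 0.11, adjusted p = 0.00277). Serpina1c read 11.80, 11.68, 11.89, 11.95 and 12.09 in the GFP arrays and 11.75, 11.62, 11.88, 11.56 and 11.85 in the Phf2 arrays. Its groups overlapped, and the difference was -0.15 (SE 0.09, 95% confidence interval -0.35 to 0.04, adjusted p = 0.358). Whether the paralogues differ from each other in response was not tested. The paralogues are near-identical copies, so that which copy a probe reads is uncertain.

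Another 2 features carry the symbols Serpina1a to Serpina1e together. In a fit over all 35556 features, in which 2.04% fell, 1 of them fell by 0.33 (SE 0.07, adjusted p = 0.0249), from 12.65 to 12.82 in GFP to 12.23 to 12.55 in Phf2. The other read -0.27 (SE 0.09, adjusted p = 0.138), with means of 12.04 ± 0.09 in GFP and 11.77 ± 0.18 in Phf2 (SD, n = 5). Both differences thus lay between the values of Serpina1c and Serpina1d. The promoter windows of Serpina1d and Serpina1c are shown because these genes share most of the sequence, with 220 of 239 aligned bases identical (92.1%), and both hold the HNF1 half-site:
Serpina1d (chr12:103773634-103773883, minus strand): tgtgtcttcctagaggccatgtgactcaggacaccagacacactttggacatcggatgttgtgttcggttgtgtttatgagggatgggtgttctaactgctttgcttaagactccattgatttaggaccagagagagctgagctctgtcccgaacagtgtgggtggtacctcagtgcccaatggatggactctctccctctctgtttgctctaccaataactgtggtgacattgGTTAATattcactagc
Serpina1c (chr12:103904951-103905200, minus strand): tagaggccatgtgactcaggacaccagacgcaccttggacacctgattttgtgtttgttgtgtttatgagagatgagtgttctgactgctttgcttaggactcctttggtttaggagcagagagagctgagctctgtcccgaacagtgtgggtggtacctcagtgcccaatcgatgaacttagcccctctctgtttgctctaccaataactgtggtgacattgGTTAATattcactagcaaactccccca

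Serpina10, Serpina11 and Serpina9 completed the clade a genes that fell. Serpina10 encodes the protein Z-dependent inhibitor of activated factor X. It read 9.91, 9.97, 10.01, 9.61 and 9.94 in the GFP arrays and 9.48, 9.46, 9.52, 9.58 and 9.55 in the Phf2 arrays. GFP replicate 4 lay far below the other GFP arrays and just above the highest Phf2 array. The log2 fold change was -0.37 (SE 0.08, adjusted p = 0.0091), and -0.36 with an adjusted p of 0.0504 when GFP replicate 1 and Phf2 replicate 3 were both left out.

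Serpina11, a secreted member of little known function, read 7.36, 7.43, 7.31, 7.10 and 7.43 in the GFP arrays and 6.81, 6.94, 7.08, 6.70 and 7.06 in the Phf2 arrays. The groups came close without overlapping, and the log2 fold change was -0.41 (SE 0.09, adjusted p = 0.0128). Serpina9, known as centerin and as a gene of germinal centre B cells, read 4.84, 5.24, 4.71, 4.91 and 5.21 in the GFP arrays and 4.34, 4.34, 4.13, 4.03 and 4.56 in the Phf2 arrays. It was lower in every Phf2 array, by 0.71 on the log2 scale (log2 fold change -0.71, SE 0.12, adjusted p = 0.00327). Its Phf2 mean of 4.28 lay close to the 25th percentile of all genes (4.25), where the size of a fall is uncertain. The means of 7 B cell markers were 4.61 to 4.97 in GFP and 4.75 to 5.46 in Phf2, and their part in the fall of Serpina9 was not tested.

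The other clade a members did not pass the test. Serpina3n, an acute phase serpin, ranged from 10.05 to 10.24 in GFP and from 9.99 to 10.58 in Phf2, and its difference was 0.11 (95% confidence interval -0.12 to 0.35). Serpina12, the adipokine vaspin, read -0.52 with overlapping groups (SE 0.19, adjusted p = 0.121). Serpina16, Serpina1f, Serpina3a, Serpina3b and Serpina5 had means between 3.76 and 4.07, and differences between -0.07 and 0.06. Of the 15 clade a members 5 fell, 1 rose and 9 did not pass, and the median log2 fold change was -0.14, or -0.388 over the 10 that were not dim.

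The acute phase proteins, with which Serpina3n is usually grouped, moved in both directions. Of 21 listed genes 5 rose and 8 fell, with a median of -0.04. Lcn2, which binds bacterial iron carriers, rose by 2.04 and Orm3, an orosomucoid, rose by 1.59. Apcs, serum amyloid P, fell by 0.65 and Saa4, a constitutive serum amyloid A, fell by 0.60.

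Along chromosome 12 the clade a genes analysed stood in the order Serpina10, Serpina6, Serpina16, Serpina1f, Serpina1d, Serpina1c, Serpina11, Serpina9, Serpina12, Serpina4-ps1, Serpina5, Serpina3a, Serpina3b and Serpina3n. Of these 14 genes 5 fell and none rose, and 12 had a difference below 0. From Serpina1d to Serpina4-ps1, 6 neighbours in a row read lower by 0.15 or more, of which 4 passed the test. The 4 genes that follow, up to Serpina3n, read between -0.03 and 0.11. Among these, Serpina5, Serpina3a and Serpina3b lay below the 25th percentile of all genes in mean level, where a fall may not be detectable. All 6 neighbours before them lay above it. Serpina1c and Serpina12 are the 2 of these 6 that did not pass, and whether neighbours differ from each other was not tested.

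**Figure D2:**
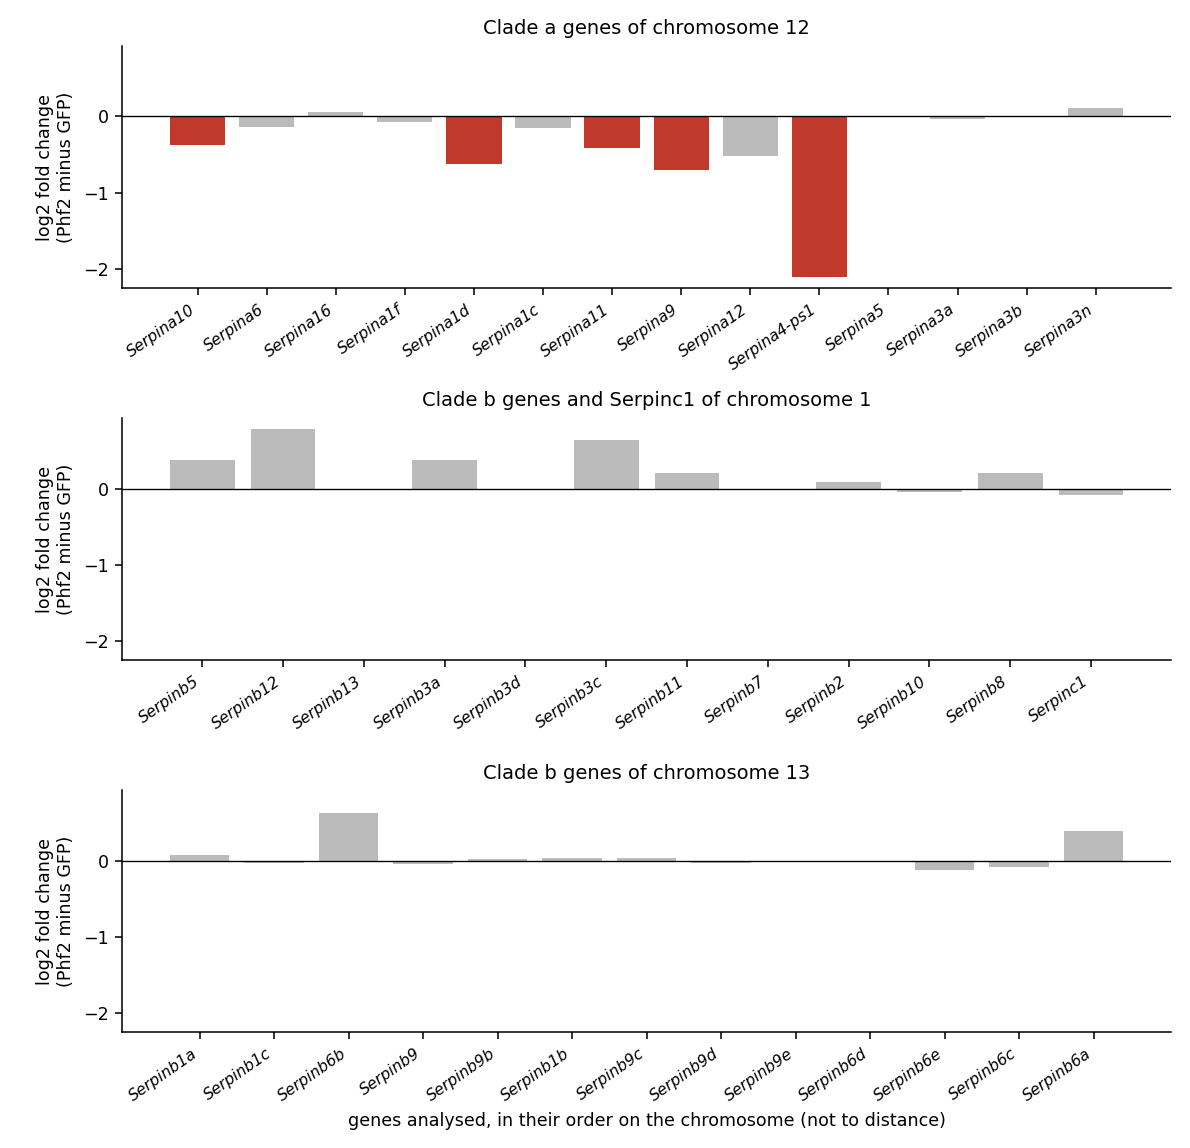
The difference in log2 value, Phf2 minus GFP (vertical axis), of the serpins on chromosomes 12, 1 and 13, as 1 bar per gene in chromosomal order without regard to distance, with genes past an adjusted p of 0.05 in red. On chromosome 12 the 5 genes that fell lie among the first 10, and no gene of chromosomes 1 or 13 passed the test.

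Of the coagulation and complement inhibitors outside clade a, Serpind1 passed the test and Serpinc1 and Serping1 did not; whether they differ from each other was not tested. Serpind1, heparin cofactor II and an inhibitor of thrombin, read 10.83, 10.90, 10.90, 10.81 and 10.95 in the GFP arrays and 10.64, 10.25, 10.32, 10.44 and 10.68 in the Phf2 arrays. All Phf2 arrays were lower, and the log2 fold change was -0.41 (SE 0.09, adjusted p = 0.00896). Serpinc1, antithrombin, read 11.74, 11.75, 11.78, 11.75 and 11.74 in the GFP arrays and 11.72, 11.61, 11.61, 11.64 and 11.76 in the Phf2 arrays. The GFP arrays were almost level, with an SD of 0.02, and the difference was -0.08 (95% confidence interval -0.20 to 0.04, adjusted p = 0.437). Serping1, the C1 inhibitor of complement and the contact system, read 11.37, 11.37, 11.68, 11.43 and 11.46 in the GFP arrays and 11.25, 11.26, 11.35, 11.19 and 11.40 in the Phf2 arrays. The groups overlapped, GFP replicate 3 stood above the rest of its group, and the difference was -0.17 (SE 0.07, adjusted p = 0.186).

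Proteases of coagulation and complement, listed without regard to which inhibitor acts on which, were lower in part. Of 7 coagulation proteases 4 fell and none rose, with a median of -0.34. F11, the zymogen of factor XI, fell by 0.78 (SE 0.16, adjusted p = 0.00874) and F7, factor VII, fell by 0.47. F2, the gene of prothrombin, was lower in every Phf2 array but did not pass (log2 fold change -0.18, SE 0.06, adjusted p = 0.0805). Of 6 complement C1 and lectin pathway proteases 2 fell and none rose. Masp1, a mannan-binding lectin protease that C1 inhibitor restrains, fell by 1.08 (SE 0.07, adjusted p = 2.66e-06) and C1ra, a protease of the C1 complex, fell by 0.36. The list means of the coagulation proteases lay between 9.83 and 9.99 in GFP and between 9.44 and 9.74 in Phf2.

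Both clade f members, which are neighbours on chromosome 11, fell. Serpinf2 encodes alpha-2-antiplasmin, the main inhibitor of plasmin. It read 9.63, 9.90, 9.77, 9.77 and 10.03 in the GFP arrays and 9.06, 8.90, 8.95, 9.02 and 9.16 in the Phf2 arrays. The groups were well separated, and it fell by 0.80 (SE 0.08, adjusted p = 7.43e-05), a level 1.74-fold lower. Serpinf1 encodes pigment epithelium-derived factor, a secreted protein without inhibitory activity. It read 10.70, 10.73, 10.66, 10.66 and 10.70 in the GFP arrays and 10.48, 10.17, 10.25, 10.21 and 10.51 in the Phf2 arrays. Phf2 replicates 1 and 5 lay nearest to the GFP arrays, and the log2 fold change was -0.36 (SE 0.08, adjusted p = 0.00917). With GFP replicate 1 and Phf2 replicate 3 both left out its adjusted p was 0.0561. The promoter windows of the pair, shown because the neighbours fell together, hold no HNF1 half-site:
Serpinf2 (chr11:75439502-75439751, minus strand): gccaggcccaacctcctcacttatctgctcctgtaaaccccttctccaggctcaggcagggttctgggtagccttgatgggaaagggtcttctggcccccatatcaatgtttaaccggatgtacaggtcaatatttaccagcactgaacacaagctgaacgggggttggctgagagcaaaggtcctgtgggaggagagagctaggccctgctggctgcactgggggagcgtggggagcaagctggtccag
Serpinf1 (chr11:75422624-75422873, minus strand): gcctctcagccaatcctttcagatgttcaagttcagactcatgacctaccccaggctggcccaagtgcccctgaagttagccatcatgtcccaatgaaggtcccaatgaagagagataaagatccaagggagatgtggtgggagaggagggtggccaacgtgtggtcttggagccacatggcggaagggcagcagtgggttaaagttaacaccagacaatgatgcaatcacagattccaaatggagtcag

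Genes of the plasmin system did not move as 1 group. Of 5 genes, Plg, the plasminogen that alpha-2-antiplasmin controls once activated, fell by 0.40 (SE 0.08, adjusted p = 0.00642). Plat, the tissue activator, rose by 0.36, and Plgrkt, a plasminogen receptor, rose by 0.43. Among 9 genes for the clearance and cofactors of serpins, 6 fell and 1 rose. Proz, protein Z and thus the cofactor of Serpina10, fell by 0.62 (SE 0.12, adjusted p = 0.00683), and the heparan sulfate proteoglycan Sdc4 fell by 0.50. Vldlr, a receptor that takes up serpin-protease complexes, rose by 1.01 (SE 0.17, adjusted p = 0.00291). Of 7 surface or secreted serine proteases, Tmprss6, which restrains hepcidin, fell by 0.47, Hpn, hepsin, fell by 0.35 and Prss8, prostasin, rose by 0.95.

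Searches for 4 other motifs in the same windows, on both strands, gave shares to set beside the HNF1 half-site. The E-box CACGTG stood in 6.04% of all windows and in none of the 41 of serpins. The STAT5 site TTCNNNGAA stood in 7.14% of all windows and in 4 of serpins, and the C/EBP site TTGCNNAA in 9.55% and 9. The nuclear receptor half-site AGGTCA stood in 13.8% of all windows and in 12 of serpins, Serpinf1 and Serpinf2 among them. No match of a motif overlapped that of another in the windows printed. A match describes letters and no binding was measured.

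**Figure D3:**
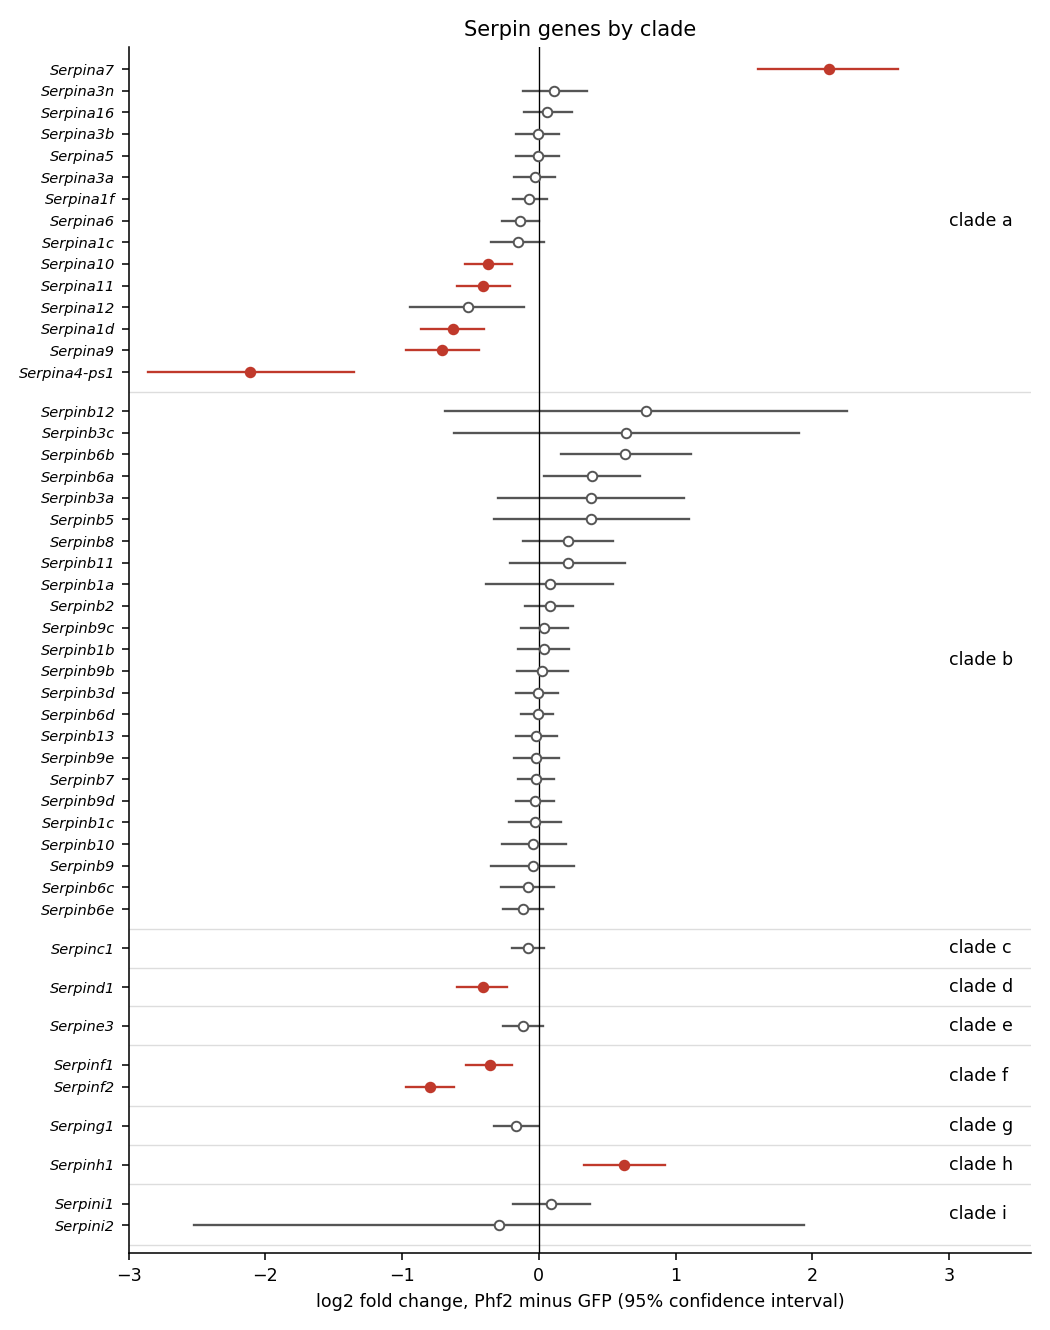
The log2 fold change (Phf2 minus GFP, horizontal axis) of all 48 serpins, grouped by clade, with the 95% confidence interval of the limma fit as a line; red filled points are genes past an adjusted p of 0.05 and open points the others. Clades a, d, f and h hold the 10 members that changed, and the widest interval is that of Serpini2, from -2.52 to 1.94.

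The 8 members that fell did not fall equally in all Phf2 mice. Their mean distance from the GFP mean was -0.62, -0.77, -0.83, -0.98 and -0.43 in Phf2 replicates 1 to 5. Serpina4-ps1, which fell most and ranged from 7.51 to 9.82 in the Phf2 arrays, weighs most in these means. Replicate 5 had the highest Phf2 value for 6 of the 8, and replicates 2 and 4 had the lowest for 4 each. The mean of the hepatocyte markers was also highest in Phf2 replicate 5 (11.80) and lowest in replicate 4 (11.50), and its part in the fall of these serpins was not tested. Of the 10 members that changed, 4 (Serpina10, Serpina11, Serpind1 and Serpinf1) changed by less than the 1.5-fold that the study used as a limit.

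Serpinh1 rose. It encodes Hsp47, which binds procollagen in the endoplasmic reticulum and inhibits no protease, and it read 5.69, 5.39, 5.70, 5.54 and 5.61 in the GFP arrays and 6.03, 6.43, 6.54, 6.29 and 5.74 in the Phf2 arrays. Phf2 replicate 5 lay just above the highest GFP array. The log2 fold change was 0.62 (SE 0.13, adjusted p = 0.011), or 1.54-fold, and the adjusted p was 0.0547 with an unmoderated test per gene. After quantile normalization or median centring the groups overlapped. Its promoter window, shown as that of the second member that rose, has a GC content of 63.6% against 36.0% for Serpina7 and holds none of the 5 motifs:
Serpinh1 (chr7:99353240-99353489, minus strand): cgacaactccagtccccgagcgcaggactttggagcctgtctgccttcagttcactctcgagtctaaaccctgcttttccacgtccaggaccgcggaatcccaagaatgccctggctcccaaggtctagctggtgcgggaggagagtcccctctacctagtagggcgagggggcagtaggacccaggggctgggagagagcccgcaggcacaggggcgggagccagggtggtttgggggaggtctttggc

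Collagens and their modifying enzymes did not pass the test beside it. By limma none of 16 genes on that list was past the adjusted threshold, 5 had an unadjusted p under 0.05, and none passed with the unmoderated test. Over all genes, 4423 of 19938 had an unadjusted p under 0.05. The list's median was 0.11, and the smallest p belonged to Plod2, a collagen lysyl hydroxylase (log2 fold change 0.36, SE 0.11, adjusted p = 0.061). Stellate cells are the main collagen producers of liver. The means of 10 stellate cell markers were 6.74 to 6.95 in GFP and 6.84, 7.23, 7.42, 7.14 and 6.85 in Phf2 replicates 1 to 5. The 3 Phf2 arrays with the highest Serpinh1 were also the 3 with the highest stellate means. This match was not particular to the stellate list. The same 3 arrays had the highest Phf2 means of monocyte and macrophage markers (7.01, 7.25 and 7.18, against 6.74 and 6.72). They were also highest for T cell and NK cell markers (5.33, 5.52 and 5.73, against 5.24 and 5.19) and pancreatic markers, but not endothelial markers. Of the stellate cell markers Lum, a matrix proteoglycan, and Hgf, hepatocyte growth factor, rose and Ecm1, a secreted matrix protein, fell. The part of any of these lists in the rise of Serpinh1 was not tested.

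Of 16 genes for folding and disposal in the endoplasmic reticulum, which secreted serpins pass through, 4 fell and 1 rose. Os9, a lectin that directs misfolded glycoproteins to disposal, fell by 0.48 (SE 0.07, adjusted p = 0.000927) and Edem2, which trims their sugars, fell by 0.35. Derl1, part of the channel for disposal, rose by 0.48 (SE 0.09, adjusted p = 0.00634).

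**Figure D4:**
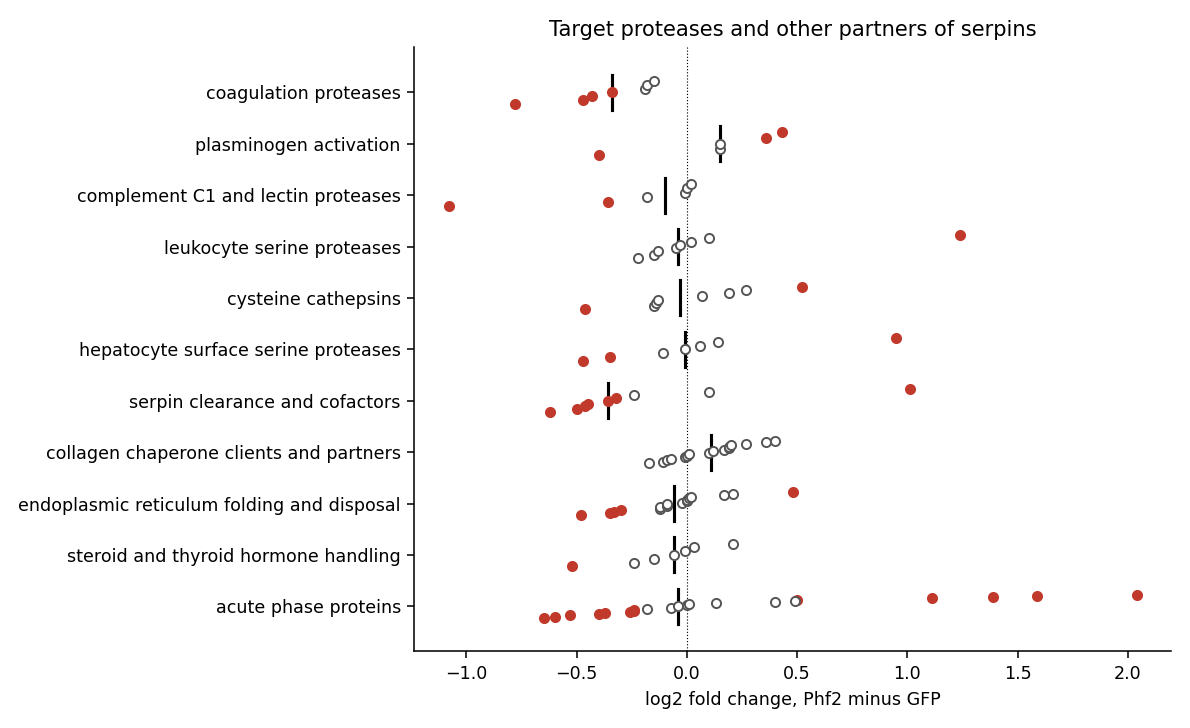
The log2 fold change (Phf2 minus GFP, horizontal axis) of genes in 11 lists, with 1 point per gene, filled red past an adjusted p of 0.05, and the list median as a vertical bar. The lists hold proteases, clearance and cofactor genes, collagen and folding genes, hormone handling genes and acute phase proteins. Lists of coagulation proteases and of clearance and cofactors lie mostly below 0 (medians -0.34 and -0.36), and no collagen gene or partner passed the test.

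None of the 24 clade b members passed the adjusted limma test or the unmoderated test, and 2 had an unadjusted p under 0.05. Over all genes, 4423 of 19938 had an unadjusted p under 0.05. The median log2 fold change of clade b was 0.03. Only 5 of the 24 were above the 25th percentile of all genes in mean level (Serpinb1a, Serpinb6a, Serpinb6b, Serpinb8 and Serpinb9), and the others read near the low end of the scale, where a change may not be detectable. Serpinb6a, an inhibitor of the neutrophil protease cathepsin G, read 6.54, 6.55, 6.40, 6.53 and 6.84 in the GFP arrays and 6.58, 6.99, 7.53, 7.09 and 6.62 in the Phf2 arrays. The groups overlapped through Phf2 replicates 1 and 5, and the difference was 0.39 (SE 0.16, adjusted p = 0.165), or 0.25 without Phf2 replicate 3 (SE 0.12, adjusted p = 0.295). Serpinb6b read 0.63 (SE 0.22, adjusted p = 0.0979), with 5.17 to 5.71 in GFP and 5.39 to 6.72 in Phf2. At 1.55-fold and an unadjusted limma p of 0.0132, it met limits of 1.5-fold and 0.05 without adjustment.

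Leukocyte markers moved between the groups beside these genes. Of 17 T cell and NK cell markers 8 rose, with means of 4.75 to 5.00 in GFP and 5.19 to 5.73 in Phf2, and Cd3g, of the T cell receptor complex, rose from a mean of 5.08 to 6.58. Of 11 monocyte and macrophage markers 6 rose, with means of 6.26 to 6.91 in GFP and 6.72 to 7.25 in Phf2, and Mpeg1, a macrophage perforin, rose by 0.93 and Cybb, an oxidase subunit, by 0.77. Serpinb9, the inhibitor of granzyme B, did not pass the test, at -0.04 (95% confidence interval -0.35 to 0.26), and Serpinb1a, an inhibitor of neutrophil elastase, read 0.08 (95% confidence interval -0.39 to 0.54), or -0.01 without Phf2 replicate 3. Of 8 leukocyte serine proteases, Gzma, granzyme A, rose by 1.24 and none fell. Of 8 cysteine cathepsins, Ctss, expressed in antigen-presenting cells, rose by 0.52 and Ctsh fell by 0.46. Another 3 features shared by Serpinb9d, Serpinb9e, Serpinb9f and Serpinb9g read between 0.01 and 0.07 and did not pass.

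A run of clade b genes on chromosome 1 was high in Phf2 replicate 3. Serpinb12 read 7.37 there and 3.00 to 3.76 in the other Phf2 arrays. Serpinb3c, of the squamous cell carcinoma antigen group, read 6.77 there and 3.08 to 3.26 in the other Phf2 arrays. Serpinb5, maspin, read 5.38 there and 3.32 to 3.41 in the other Phf2 arrays. Their GFP arrays were as low, at 3.10 to 3.62, 3.23 to 3.32 and 3.26 to 3.49. Serpinb3a (4.63), Serpinb11 (4.15) and Serpinb2 (4.08) were also highest in this array. So was Serpinb8, the last of the run, at 5.84 against 4.87 to 5.26 in all other arrays. Serpinb13, Serpinb3d and Serpinb7 were highest there by a small margin, at 3.39, 3.11 and 2.82, and Serpinb10 read 3.42 there and 3.43 in GFP replicate 2.

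The differences between the groups in these genes rested on that array. Serpinb12 read 0.78 (SE 0.68) with all arrays and -0.04 without Phf2 replicate 3. Serpinb3c read 0.64 (SE 0.58) with it and -0.08 without it. Serpinb5 went from 0.38 to -0.02 and Serpinb3a from 0.38 to 0.00. Serpinb11 went from 0.21 to -0.01 and Serpinb8 from 0.21 to 0.05. The mean of 19 markers of stratified squamous epithelium, a list chosen after these values were seen, was 7.10 in Phf2 replicate 3, 4.82 to 5.09 in GFP and 4.88 to 5.51 in the other Phf2 arrays, and 16 of the 19 were highest in it. The 1 marker that passed the test, Ly6d, a surface protein also of lymphocytes, was instead higher in all Phf2 arrays (log2 fold change 2.74, SE 0.23, adjusted p = 1.70e-05). The part of these markers in the serpin values was not tested.

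**Figure D5:**
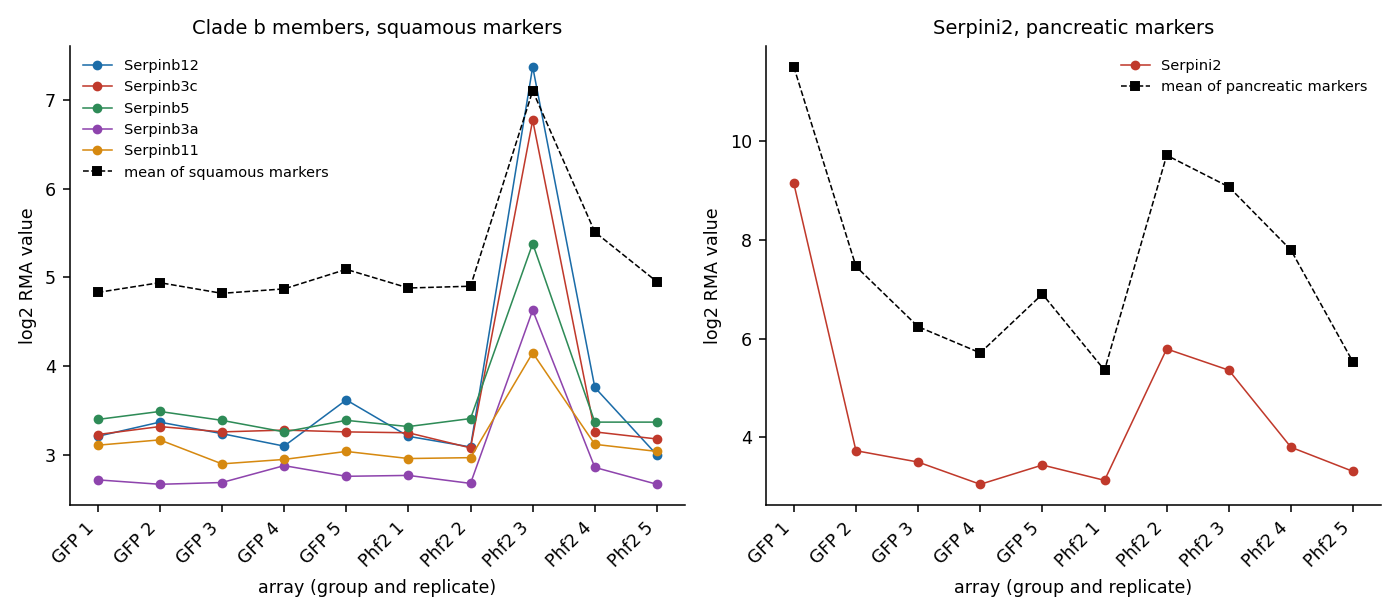
The log2 RMA value (vertical axis) in each of the 10 arrays of 5 clade b serpins with the mean of 19 squamous epithelium markers (left), and of Serpini2 with the mean of 20 pancreatic acinar markers (right). Phf2 replicate 3 stands above the other arrays on the left, and GFP replicate 1 on the right.

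Serpini2, known as pancpin and expressed in exocrine pancreas, read 9.14, 3.73, 3.50, 3.05 and 3.44 in the GFP arrays and 3.13, 5.79, 5.36, 3.80 and 3.31 in the Phf2 arrays. GFP replicate 1 stood above all other arrays. The difference was -0.29 (SE 1.03) with all arrays and 0.85 without that array (adjusted p = 0.389), so that its direction turned on 1 array and neither value passed. The means of 20 pancreatic acinar markers were 11.50, 7.46, 6.24, 5.71 and 6.90 in GFP and 5.36, 9.71, 9.07, 7.79 and 5.52 in Phf2. The 5 arrays with the highest Serpini2 were the 5 with the highest pancreatic means, in the same order. With the mean of these markers as a covariate in the fit, the difference was -0.23 and its SE was 0.38 (adjusted p = 0.789). Serpini1, neuroserpin, read 4.86, 4.45, 4.12, 4.37 and 4.37 in the GFP arrays and 4.55, 4.27, 4.76, 4.64 and 4.41 in the Phf2 arrays. The groups overlapped, with a difference of 0.09 (95% confidence interval -0.19 to 0.37).

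Serpine3, the clade e member analysed, read 5.55, 5.57, 5.61, 5.54 and 5.36 in the GFP arrays and 5.48, 5.35, 5.36, 5.36 and 5.49 in the Phf2 arrays. The groups overlapped through GFP replicate 5, and the difference was -0.12 (SE 0.06, adjusted p = 0.342).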

How the data were processed

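The deposited table holds 35556 features per array as log2 values, which the authors obtained by RMA. RMA and Partek are named, without versions, in the submitters' processing notes. Although the methods mention a human array, the features are numbered as on a mouse Gene ST array, and the RNA kit of the methods (RNeasy) is another one than that of the labels. Features were named through the platform annotation (21789 with 1 symbol, 1621 with several, 12146 with none), and of a gene's several features the one with the highest mean was kept. The 19938 genes were fitted by lmFit and eBayes without a covariate (R 4.3.3, limma 3.58.1; the script was tested on simulated data), with Benjamini-Hochberg adjustment and a threshold of 0.05. Single values were compared by two-sided exact permutation (SciPy 1.17.1). The number of arrays limits the precision. Members, lists and tests were chosen with earlier results of these data known. Values per array are given for members that passed the test and for the member of each clade with the highest mean, and also for Serpina6 and Serpini2, chosen after their values were seen. From other lists, up to 2 genes that rose and 2 that fell most are named, or the gene with the smallest p where none passed. F2 is named as well, since thrombin is a target of Serpind1. Cell marker lists in which none passed are given by their means. Alternatives covered normalization, the choice of feature, dim genes, array weights, a robust prior, a pancreatic marker covariate, a replicate block, an unmoderated test and leaving out arrays.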

Additional observations from a re-analysis of the deposited data

Results flagged for a closer look

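Of 96 sets of 5 arrays (48 members in each group), 10 held an array that stood far from the other 4 by Dixon's criterion, where chance gives about 5%, and 6 of the 10 were in Phf2 replicate 3. These were Serpinb12 at 7.37, Serpinb3c at 6.77, Serpinb5 at 5.38, Serpinb3a at 4.63, Serpinb11 at 4.15 and Serpinb2 at 4.08. Serpini2 stood high in GFP replicate 1 at 9.14. Serpina10 was low in GFP replicate 4 at 9.61, against 9.91 to 10.01 in the other GFP arrays. Serpine3 was low in GFP replicate 5 at 5.36, against 5.54 to 5.61. Serping1 was high in GFP replicate 3 at 11.68, against 11.37 to 11.46.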

How the results depend on the processing

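The 10 members that changed kept their direction under each of 21 alternatives and their side of the threshold in 207 of 210 cases, the exceptions being Serpinh1 under the unmoderated test and Serpina10 and Serpinf1 without GFP replicate 1 and Phf2 replicate 3, an alternative chosen after seeing the data. The unmoderated test called 694 genes higher and 1 serpin higher. Without those 2 arrays 586 genes were higher and 493 lower. At an unadjusted p under 0.05 and 1.5-fold, 475 genes rose and 231 fell, and 3 serpins rose and 4 fell. The 3 were Serpina7, Serpinh1 and Serpinb6b, a clade b gene that did not pass the adjusted test. After quantile normalization, and after median centring, 1 serpin was higher without overlap. The serpin median was 0.00827 after quantile normalization and -0.147 without dim genes, which leave fewer genes, and the clade medians without them were -0.388 (a) and 0.207 (b). Leaving out single arrays gave 727 to 1220 genes higher, 571 to 912 lower, 2 to 3 serpins higher and 8 lower. Replicate numbers are shared between the groups but do not pair the mice (correlations of deviations -0.2911 to -0.0421, and no array was nearest to its own number); with the replicate block 1514 genes and 10 serpins passed. Dim probes limit what can be seen, chiefly in clade b.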

Other observations

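Of 12 male-biased liver genes 7 fell and none rose (median -0.79), led by Hsd3b5, a steroid dehydrogenase (-4.93), and Slco1a1, an organic anion carrier (-2.68). Of 12 female-biased genes 7 rose and none fell (median 0.62), led by Cyp2b9, a cytochrome P450 (4.87), and Slc22a27, an organic anion transporter (3.93). Of 10 growth hormone signalling genes 5 fell, among them Socs2 (-1.63), which restrains the receptor, and Igfals (-1.57), which stabilises IGF1 in plasma. Of 13 interferon-induced genes 1 passed the test, Usp18 (1.47). Of 10 Kupffer cell markers 4 fell, led by the scavenger receptor Cd163 (-1.89) and by Timd4 (-1.59), and none rose. The list did not move as 1 group, since only 6 of the 10 read below 0 and the others read up to 0.43. Of 10 endothelial markers Lyve1 rose (0.51). The means of neutrophil markers (4.45 to 4.62 in GFP, 4.49 to 4.71 in Phf2), bile duct markers (4.90 to 5.84, 5.11 to 5.50) and platelet markers (5.16 to 5.32, 5.21 to 5.38) overlapped between the groups.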
